A study of Mus musculus with 18 samples.

Results

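The genes described are 10 components of hepatic insulin signalling, taken from the liver expression table by their symbols (Insr, Irs1, Irs2, Grb14, Pik3r1, Pdpk1, Akt1, Akt2, Foxo1 and Foxo3). This set was chosen with earlier results of these data known. They are 10 of the 19057 symbols of the table, and all 10 were measured in all 18 libraries. The libraries came from livers of ICR mice 10 weeks of age and fall into 6 groups of 3. Con mice were the controls, and AOS mice received alginate oligosaccharide, an oligomer cut from seaweed alginate, at 10 mg/kg. STZ mice received streptozotocin, a toxin taken up by the insulin-producing beta cells of the pancreas that is used to model type 1 diabetes, and STZ+AOS mice received both agents. A10-FMT and Con-FMT mice received streptozotocin and then a transplant of gut microbiota, whose donors had been dosed with AOS (10 mg/kg) for the former and were controls for the latter. The donors' intestinal contents were pooled for each kind of transplant, and no group had a transplant without streptozotocin. The mice were male by the methods of the study, which describe the Con, STZ, A10-FMT and Con-FMT groups, whereas the AOS and STZ+AOS groups are known here from the sample labels only. The labels do not state that each library is a separate mouse, so the p-values measure the spread between these libraries.

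Insulin binds its receptor on hepatocytes, the receptor phosphorylates the adaptors IRS1 and IRS2, and these recruit phosphoinositide 3-kinase through its regulatory subunit p85, which Pik3r1 encodes. The lipid made by this kinase brings PDK1 (Pdpk1) and the AKT kinases together at the membrane, and active AKT phosphorylates the transcription factors FOXO1 and FOXO3 and keeps them out of the nucleus. In the fasted or insulin-deficient liver FOXO proteins are nuclear and switch on gluconeogenic genes, Igfbp1 and the receptor and Irs2 genes themselves, while the glucose-using and fat-making genes that insulin induces are low. These steps are regulated mainly by phosphorylation, which RNA levels do not measure.

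Values are RPKM (read counts divided by transcript length and by mapped reads), so genes of different length can be compared. The number of mapped reads per library was unknown. Relative depths, read from the spacing of low values in 16 genes, were 0.929 to 1.092 around the average library, with 1.026 to 1.059 in Con and 0.943 to 0.991 in STZ, and 9955 to 10409 genes reached 1 RPKM in a library. The 10 hepatocyte markers were at 1 RPKM or more in every group, and Alb (albumin) averaged between 28229 and 34805 RPKM. A pair of libraries stood apart. On the first principal component of the log2 values, which held 57.0% of the variance, the third STZ library lay at 0.18, between the other STZ libraries (45.9 and 46.4) and Con (-42.6 to -37.6). The third STZ+AOS library had the highest value of all 18 libraries for 2975 of the 10822 genes tested (27.5%), and it held 7 of 8 exocrine pancreas genes at 3.31 to 36.5 RPKM where no other library exceeded 1.34. Results without them are given beside the main results in several places, but not for every value that changed.

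In control livers the 10 genes were expressed at very different levels. Akt2 (34.3 ± 1.46 RPKM, SD, n = 3) and Grb14 (31.7 ± 1.81) were the most abundant members and their libraries overlapped. Akt1 followed at 20.5 ± 2.09, Insr at 10.2 ± 0.505 and Pik3r1 at 8.79 ± 0.226, each clear of its neighbours. The transcription factors Foxo1 (5.19 ± 0.531) and Foxo3 (4.41 ± 0.758) and the kinase gene Pdpk1 (4.09 ± 0.382) overlapped in turn. The receptor substrates Irs1 (2.54 ± 0.419) and Irs2 (2.21 ± 0.345) were lowest, and their libraries overlapped although Irs2 was below Irs1 in each Con library. Over all 18 libraries Irs2 had the widest range of the 10 genes, from 1.69 RPKM in an AOS library to 35.5 in the third STZ+AOS library, a 21.0-fold span. Akt2 had the narrowest, from 33.2 to 43.5, a 1.31-fold span. The plot of levels by library shows the members in the order of the pathway.

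**Figure D1:**
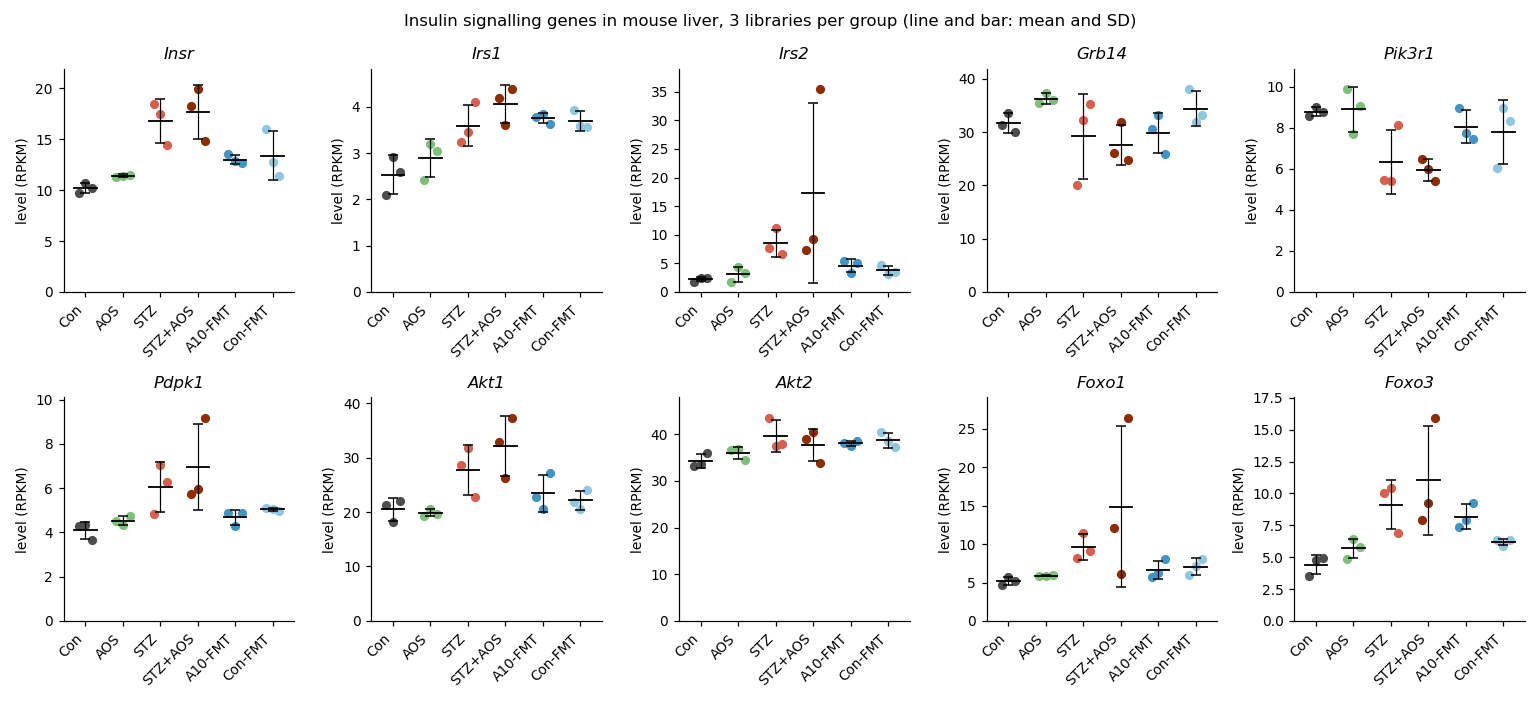
Levels of the 10 insulin signalling genes in RPKM (vertical axes, from 0) for each of the 3 libraries of the 6 groups, with the mean as a line and the SD as a bar. Irs2 lies between 1.81 and 2.44 in Con and between 6.62 and 11.2 in STZ, and the third STZ+AOS library is the highest point for Irs2, Foxo1, Foxo3, Akt1, Irs1 and Pdpk1.

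The comparison of STZ with Con asks how these genes stood in livers of streptozotocin-treated mice. Of the 10 genes, 6 rose (Insr, Irs1, Irs2, Akt1, Foxo3 and Pdpk1) and Pik3r1 fell at an adjusted p under 0.05, and Akt2, Foxo1 and Grb14 were not called. The test was limma's moderated test on log2(RPKM + 1), adjusted by Benjamini-Hochberg over 10822 genes. In that test 36.1% of all genes were called, 30.8% higher and 5.25% lower, and the median log2 difference was 0.21 over all genes and 0.43 over the members. The values of the 3 STZ libraries lay clear of the 3 Con libraries for 9 of the members, where 47.6% of all genes did so. No member reached the limits of the study (adjusted p of 0.001 or less and a log2 difference of 1 or more), which 2.85% of all genes did. Differences are on the log2(RPKM + 1) scale, which understates the change of genes with low values. In a whole liver, fewer cells of a type and less RNA per cell cannot be told apart.

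The direction of calls across all genes depended on the scaling. Scaling each library by the median ratio of its genes moved the median of all genes from 0.21 to -0.01 and the split of calls from 3336 higher and 568 lower to 1319 higher and 1320 lower. Under that scaling Insr (log2 difference of 0.41), Irs2 (1.34) and Foxo3 (0.67) remained called higher and Pik3r1 (-0.68) lower. Irs1 (0.18, adjusted p = 0.263), Akt1 (0.15, adjusted p = 0.449) and Pdpk1 (0.24, adjusted p = 0.251) were no longer called. The same 3 calls were lost with quantile normalization.

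**Figure D2:**
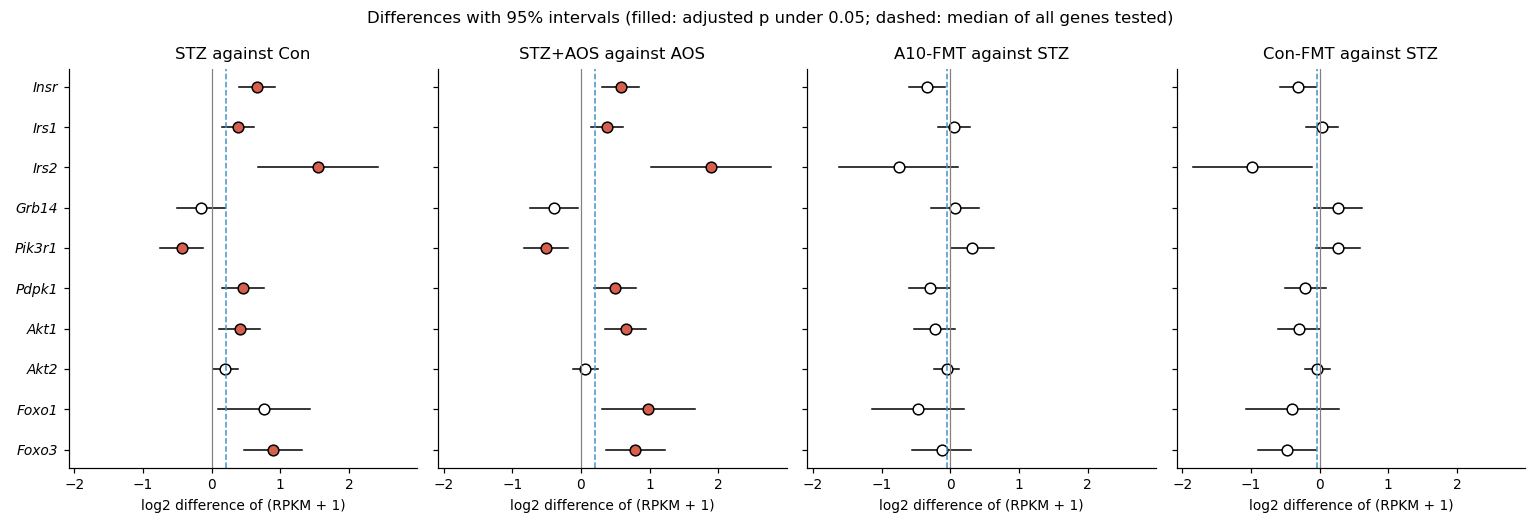
Fitted log2 difference of RPKM + 1 (horizontal axes) for each member in 4 comparisons, with 95% intervals as lines, filled points for an adjusted p under 0.05 and a dashed line at the median of all genes tested. Filled points are 7 for STZ against Con, 8 for STZ+AOS against AOS, and 0 for either transplant group against STZ.

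Insr encodes the insulin receptor (chromosome 8 of GRCm38, the build of all gene positions given, 3122061 to 3279617, minus strand). Its levels were 9.71, 10.7 and 10.2 RPKM in Con and 18.5, 17.5 and 14.4 in STZ, a ratio of means of 1.64, and the groups did not overlap. The log2 difference was 0.66 ± 0.12 (SE, adjusted p = 0.00128), the smallest adjusted p among the members, and the call held when any 1 of the 6 libraries was left out, with log2 differences of 0.59 to 0.76. The means of the 6 groups were ordered STZ+AOS (17.6 ± 2.63), STZ (16.8 ± 2.14), Con-FMT (13.4 ± 2.39), A10-FMT (13.0 ± 0.469), AOS (11.4 ± 0.131) and Con (10.2 ± 0.505). Neighbours in that order overlapped, except A10-FMT above AOS and AOS above Con.

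Grb14 encodes an adaptor that binds the activated receptor and inhibits its kinase (chromosome 2, 64912476 to 65024987, minus strand). Its levels were 31.4, 33.7 and 30.1 RPKM in Con and 20.1, 32.3 and 35.2 in STZ. The first STZ library was the lowest of all 18 for this gene and the other STZ libraries lay within or above the Con range, so the groups overlapped. The log2 difference was -0.15 (adjusted p = 0.485), and it was 0.09 without the first STZ library. In the other groups the mean was 36.3 ± 0.964 in AOS, 27.6 ± 3.77 in STZ+AOS, 29.9 ± 3.76 in A10-FMT and 34.4 ± 3.27 in Con-FMT.

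Irs2 encodes the substrate whose transcription in liver is known to rise in fasting (chromosome 8, 10984681 to 11008458, minus strand). It had the largest difference of the members. Its levels were 1.81, 2.37 and 2.44 RPKM in Con and 7.71, 11.2 and 6.62 in STZ, a ratio of means of 3.86 with no overlap. The log2 difference was 1.55 ± 0.41 (SE, adjusted p = 0.0094), and the call held without any single library (log2 differences of 1.35 to 1.69). The AOS libraries were at 1.69, 4.31 and 3.24 RPKM and the STZ+AOS libraries at 7.31, 9.23 and 35.5. The transplant groups lay lower than STZ without overlap, with A10-FMT at 5.50, 3.31 and 5.06 RPKM and Con-FMT at 4.74, 3.12 and 3.49.

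Irs1 encodes the other main substrate (chromosome 1, 82233101 to 82291416, minus strand). Its levels were 2.09, 2.92 and 2.60 RPKM in Con and 3.24, 3.45 and 4.10 in STZ, a ratio of means of 1.42 with no overlap. For Irs1 the fitted difference was 0.38 ± 0.11 (SE, adjusted p = 0.0142), and without the first Con library it was 0.29 and no longer called (adjusted p = 0.0789; 0.0107 to 0.263 over the alternatives tried). The means of the groups given streptozotocin ran from 3.60 ± 0.448 in STZ to 4.06 ± 0.412 in STZ+AOS, with A10-FMT at 3.75 ± 0.108 and Con-FMT at 3.70 ± 0.211. Between STZ and the group next below it, AOS (2.89 ± 0.408), the libraries did not overlap.

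The promoters of both substrate genes are shown, with that of Igfbp1, the classical FOXO target, beside them. Both substrate genes were called higher in STZ, as were Insr, Akt1, Foxo3 and Pdpk1, whose promoters are not shown. RefSeq gives a promoter of 250 bases before to 50 bases after the start for 9 of the 10 members, all but Insr. The sequences run 5′ to 3′ on the strand of the gene in build GRCm38.p6, and the capitals mark every match, on either strand, to the insulin response sequence TGTTTTG, its variant TATTTTG, the FoxO consensus TGTTTAC or the E-box CACGTG, the core letters that SREBP1 and other factors can bind. They are Irs2 (chr8:11008880-11009179, minus strand), Irs1 (chr1:82291390-82291689, minus strand) and Igfbp1 (chr11:7197537-7197836, plus strand).
Irs2: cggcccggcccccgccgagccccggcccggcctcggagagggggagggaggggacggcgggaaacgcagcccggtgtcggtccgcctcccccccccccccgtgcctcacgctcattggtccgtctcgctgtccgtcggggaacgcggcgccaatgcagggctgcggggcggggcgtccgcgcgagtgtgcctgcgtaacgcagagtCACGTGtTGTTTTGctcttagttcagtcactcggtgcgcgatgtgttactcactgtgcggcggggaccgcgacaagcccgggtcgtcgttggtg
Irs1: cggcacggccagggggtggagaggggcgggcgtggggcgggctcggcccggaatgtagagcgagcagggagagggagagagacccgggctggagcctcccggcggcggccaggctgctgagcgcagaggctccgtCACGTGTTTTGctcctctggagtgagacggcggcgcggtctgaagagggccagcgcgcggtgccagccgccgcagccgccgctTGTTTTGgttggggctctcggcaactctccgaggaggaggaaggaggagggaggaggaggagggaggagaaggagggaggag
Igfbp1: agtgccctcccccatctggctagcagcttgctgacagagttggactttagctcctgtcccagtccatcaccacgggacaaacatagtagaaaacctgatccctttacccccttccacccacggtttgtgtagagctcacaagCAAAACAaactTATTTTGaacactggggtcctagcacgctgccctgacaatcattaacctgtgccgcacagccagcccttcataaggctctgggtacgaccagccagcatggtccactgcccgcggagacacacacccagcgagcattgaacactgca
Positions are counted from the RefSeq start, which lies 471 bases upstream of the GENCODE start used in the gene position of Irs2 and 23 bases upstream of that of Irs1. In Irs2 the E-box begins 44 bases and TGTTTTG 37 bases before the start. In Irs1 TGTTTTG begins 111 and 32 bases before the start, and the farther copy shares its first letters with an E-box that begins 115 bases before it. Igfbp1 has TGTTTTG on the opposite strand, beginning 108 bases before the start, and TATTTTG 97 bases before it. Among all 32851 promoters of this length 6.28% held TGTTTTG, 4.36% TATTTTG, 3.65% TGTTTAC and 7.15% CACGTG. Of the 9 members with a promoter, only Irs1 and Irs2 held TGTTTTG or CACGTG, only Pik3r1 held TATTTTG and only Akt1 held TGTTTAC. A match is a string of letters and does not show that a factor binds.

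Pik3r1 encodes p85 alpha and its shorter forms, the regulatory subunits of phosphoinositide 3-kinase (chromosome 13, 101680563 to 101768217, minus strand). It was the member that fell. Its levels were 8.58, 9.03 and 8.76 RPKM in Con and 5.45, 5.39 and 8.15 in STZ, a ratio of means of 0.72, and the third STZ library lay nearest to Con. The log2 difference was -0.44 ± 0.15 (SE, adjusted p = 0.0323). The call was lost without any one of the 3 Con libraries or without the first or the second STZ library (log2 differences of -0.61 to -0.35 and adjusted p of 0.00319 to 0.136 over the 6 libraries left out in turn). The levels were 9.90, 7.71 and 9.08 in AOS, 6.46, 5.98 and 5.42 in STZ+AOS, 8.99, 7.74 and 7.45 in A10-FMT, and 6.02, 8.98 and 8.35 in Con-FMT. All groups next to each other in order of mean overlapped.

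Pdpk1 encodes PDK1, the kinase that phosphorylates the activation loop of AKT (chromosome 17, 24073680 to 24150924, minus strand). Its levels were 4.28, 4.34 and 3.65 RPKM in Con and 4.82, 7.03 and 6.29 in STZ, a ratio of means of 1.48 with no overlap. For Pdpk1 the fitted difference was 0.46 ± 0.14 (SE, adjusted p = 0.0205). The call was lost without the third Con library or without the second STZ library (adjusted p of up to 0.102). Means in the other groups were 4.53 ± 0.195 in AOS, 6.96 ± 1.93 in STZ+AOS, 4.68 ± 0.344 in A10-FMT and 5.05 ± 0.0656 in Con-FMT.

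Akt1 and Akt2 encode the kinases at the centre of the pathway, of which AKT2 carries most of the metabolic signal in liver. Akt1 (chromosome 12, 112653821 to 112674884, minus strand) was at 21.3, 18.2 and 22.1 RPKM in Con and at 28.7, 31.7 and 22.8 in STZ, a ratio of means of 1.35. The groups did not overlap, but the third STZ library was close to the highest Con library. For Akt1 the fitted difference was 0.41 ± 0.14 (SE, adjusted p = 0.0348), and the call was lost without the first or second Con library or without the first or second STZ library (adjusted p of up to 0.155). Akt2 (chromosome 7, 27591552 to 27640826, plus strand) was at 33.2, 33.7 and 36.0 RPKM in Con and at 43.5, 37.5 and 38.0 in STZ. Its log2 difference of 0.20 ± 0.086 (SE, adjusted p = 0.0759) was not called, was close to the median of all genes, and became -0.06 with median-ratio scaling and -0.07 with quantile normalization. Means in the other groups ranged from 19.9 ± 0.657 in AOS to 32.1 ± 5.56 in STZ+AOS for Akt1, and from 36.0 ± 1.33 in AOS to 38.8 ± 1.59 in Con-FMT for Akt2.

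Foxo1 and Foxo3 encode forkhead transcription factors that AKT inactivates. Foxo3 (chromosome 10, 42181841 to 42276755, minus strand) was at 3.54, 4.76 and 4.93 RPKM in Con and at 10.0, 10.4 and 6.91 in STZ, a ratio of means of 2.07 with no overlap. The log2 difference was 0.90 ± 0.20 (SE, adjusted p = 0.0035) and the call held without any single library. Foxo1 (chromosome 3, 52268336 to 52353221, plus strand) was at 4.65, 5.71 and 5.22 RPKM in Con and at 8.19, 11.5 and 9.11 in STZ, a ratio of means of 1.85 with no overlap. Its log2 difference was 0.77 ± 0.32 (SE) and was not called (adjusted p = 0.0688), in a fit whose spread included the third STZ+AOS library at 26.5 RPKM beside 12.1 and 6.06 in the same group. With that library left out of the spread, Foxo1 was called (adjusted p = 0.00571), as was Akt2. Over the alternatives tried, the adjusted p of Foxo1 ranged from 0.00325 to 0.239. In the other groups Foxo3 averaged 5.70 ± 0.758 RPKM in AOS, 11 ± 4.30 in STZ+AOS, 8.19 ± 0.982 in A10-FMT and 6.19 ± 0.252 in Con-FMT. The A10-FMT libraries lay above those of Con-FMT without overlap, and 8.84% of all genes did not overlap in that comparison, in either direction. Foxo1 averaged 5.90 ± 0.092, 14.9 ± 10.5, 6.64 ± 1.22 and 7.05 ± 1.09 RPKM in the same 4 groups.

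The count of called members depended on the libraries and groups in the fit. It was 9 without the third STZ+AOS library in the spread, where 4571 of 10773 genes were called. It was also 9 without both that library and the third STZ library, where 5285 of 10759 genes were called. It was 4 when the fit held the Con and STZ libraries alone, without calls for Irs1, Pik3r1, Akt1 and Pdpk1 and with a call for Foxo1. In that fit 2651 of 10311 genes were called. Leaving out 1 library gave 4 without the first Con library, 4 without the second STZ library and 5 to 7 without each of the others. Calls among all genes ranged from 2412 to 4658 in these fits. Summed markers of the Kupffer, stellate and exocrine pancreas lists did not overlap between Con and STZ, and the other sums did. The 8 Kupffer and leukocyte markers summed to 43.3 to 56.6 RPKM in Con and 58.0 to 146 in STZ, with 1 of 6 tested called higher. Among them Marco averaged 2.70 in Con and 32.7 in STZ. The 7 stellate and fibroblast markers summed to 73.7 to 84.9 in Con and 109 to 134 in STZ, mostly of Dcn (means of 64.85 and 107). Of these 7, 1 was called higher, and of the 8 endothelial markers 2 were called higher. The sums of the exocrine pancreas markers were 32.2 to 41.2 in Con and 3.58 to 8.86 in STZ, mostly of Cela1, and of the 5 adipose markers 0 reached the level for testing, with Plin1, Lep and Retn at 0 in all Con and STZ libraries. Cholangiocyte markers summed to 23.1 to 41.2 in Con and 21.3 to 41.3 in STZ (1 of 3 tested called lower), and erythroid markers to 1256 to 1972 and 470 to 1874 (1 of 4 called lower). Of the 10 hepatocyte markers 5 were called higher and 3 lower. Among all genes 30.8% were called higher and 5.25% lower. The part of these in the member differences was not tested.

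Other genes of the insulin pathway, from lists of relatives, were set beside the members in the same STZ against Con test. Of 8 receptors and adaptors that were tested, from a list of 11, 3 rose and 0 fell, among them Sh2b1, an adaptor that promotes receptor signalling (log2 difference of 0.51, adjusted p = 0.00499), and Igf2r, the scavenger receptor for IGF2 (0.46, adjusted p = 0.00202). Of 10 tested relatives of the kinases and FoxO factors, from a list of 15, 7 rose and 0 fell. They included Pik3ca, the catalytic p110 alpha subunit, at 3.81 to 4.11 RPKM in Con and 5.93 to 6.33 in STZ, and Foxo4 (log2 difference of 0.45, adjusted p = 0.00422). Sgk1, a kinase related to AKT that is also activated by PDK1, was at 5.62, 6.18 and 5.47 RPKM in Con and 20.9, 42.3 and 20.4 in STZ (log2 difference of 2.01 ± 0.31, SE, adjusted p = 0.000357). All STZ libraries lay far above Con.

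Of 18 tested inhibitors of the pathway, from a list of 20, 8 rose and Grb10 fell. Trib3, a pseudokinase that binds AKT, was at 1.32, 1.65 and 1.44 RPKM in Con and 17.9, 14.6 and 8.22 in STZ (log2 difference of 2.50 ± 0.44, SE, adjusted p = 0.000863). Enpp1, a membrane protein that binds the receptor, and Phlpp1, a phosphatase that acts on AKT, rose by smaller amounts (0.61 and 0.48 on the log2 scale). Grb10, the close relative of Grb14, went from 1.67, 2.32 and 2.08 RPKM in Con to 0.84, 1.01 and 1.18 in STZ (log2 difference of -0.59, adjusted p = 0.00659), while Grb14 itself was not called. In the mTOR arm 7 of 11 rose and 0 fell, including Mtor, the kinase, and Rictor and Mapkap1, which belong to mTOR complex 2, which phosphorylates AKT at its C-terminal site. Rictor was at 1.99, 2.21 and 2.21 RPKM in Con and 4.63, 4.34 and 2.90 in STZ (log2 difference of 0.64, adjusted p = 0.00189). In the Ras-MAPK arm 5 of 12 rose and 0 fell, including the exchange factor gene Sos2 (0.63) and the phosphatase gene Ptpn11 (0.50).

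These counts stand beside 30.8% of all genes called higher and 5.25% called lower in the same test. Most of them moved with the scaling. With median-ratio scaling the number that rose was 1 of 8 receptors and adaptors, 2 of 10 kinase and FoxO relatives, 2 of 18 inhibitors, 1 of 11 in the mTOR arm and 1 of 12 in the Ras-MAPK arm, where 12.2% of all genes rose. With quantile normalization it was 1, 2, 3, 1 and 1, where 12.5% of all genes rose, and 3 inhibitors and 1 Ras-MAPK gene fell. Without scaling and without the libraries that stood apart it was 3 of 7, 6 of 10, 11 of 18, 6 of 11 and 7 of 12. In that fit 4456 of all 10759 genes rose. Median log2 differences without scaling were 0.25, 0.37, 0.33, 0.39 and 0.36 in the same order of lists, where all genes had a median of 0.21.

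**Figure D3:**
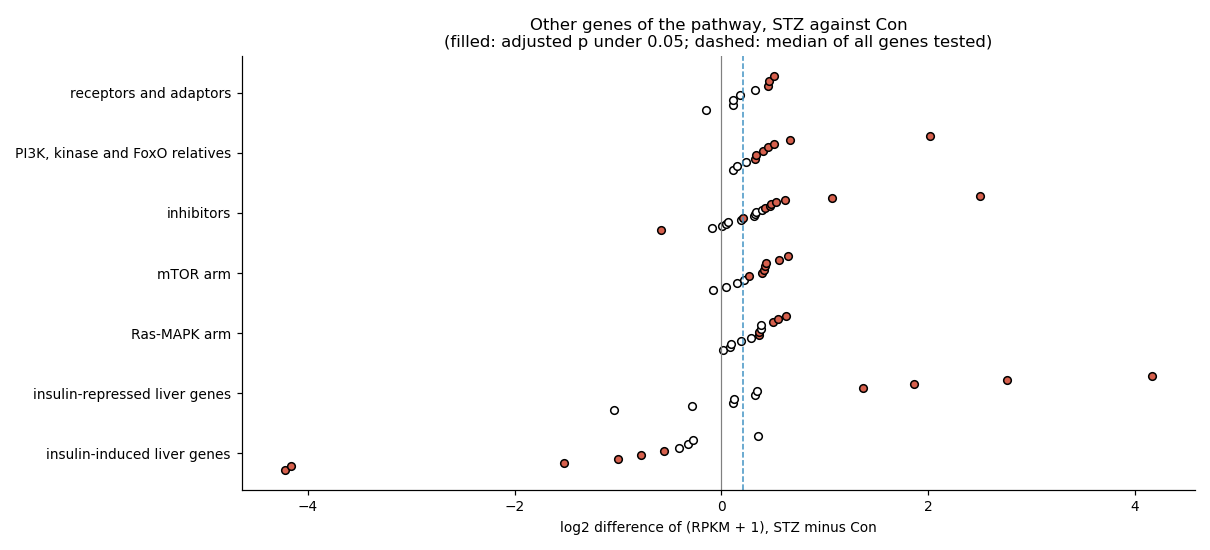
Fitted log2 difference of RPKM + 1, STZ minus Con (horizontal axis), for each tested gene of 7 lists, with filled points for an adjusted p under 0.05 and a dashed line at the median of all genes. The 5 signalling lists lie mostly a little above the dashed line, Sgk1 and Trib3 lie at 2.01 and 2.50, and Igfbp1 of the insulin-repressed list lies at 4.16 and Scd1 of the insulin-induced list at -4.16.

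The liver genes that insulin controls were read beside the signalling genes. Of 10 genes listed as insulin-repressed 4 rose and 0 fell, and of 10 listed as insulin-induced 6 fell and 0 rose. The latter list included Insig2, which was not called (-0.28, adjusted p = 0.559). These counts were the same with median-ratio scaling. Among all genes 30.8% rose and 5.25% fell without scaling, and 12.2% rose and 12.2% fell with it. Without scaling the insulin-repressed count was thus near the share of all genes and the insulin-induced count well above it. The lists were chosen with earlier results of these data known, so these counts are not independent evidence. Quantile normalization gave 4 higher and 1 lower insulin-repressed genes and 6 lower insulin-induced genes, where 12.3% of all genes fell. Without the libraries that stood apart 4 insulin-repressed genes rose and 2 fell, and 5 insulin-induced genes fell. In that fit 4456 of all 10759 genes rose and 829 fell. With 1 RPKM required in every library, 3 of 8 insulin-repressed genes rose and 4 of 8 insulin-induced genes fell. Of all 9234 genes tested there, 3039 rose and 427 fell. That filter drops Ppargc1a, at 0.56 to 0.77 RPKM in Con, and Pnpla3. Igfbp1, a secreted protein that binds insulin-like growth factors, was at 18.1, 24.0 and 21.8 RPKM in Con and 334, 976 and 190 in STZ (log2 difference of 4.16 ± 0.74, SE, adjusted p = 0.000891). Pck1, which encodes the gluconeogenic enzyme PEPCK, was at 287 to 342 RPKM in Con and 1400 to 2603 in STZ (2.76 ± 0.26, SE, adjusted p = 1.24e-05). Ppargc1a (1.86), a coactivator of gluconeogenic genes, and Klf15 (1.37), a factor for amino acid use, were the other 2 that rose. G6pc, the glucose 6-phosphatase gene, was at 156, 265 and 208 RPKM in Con and 168, 262 and 383 in STZ, and was not called (log2 difference of 0.32, adjusted p = 0.395).

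Among the insulin-induced genes Scd1, the stearoyl-CoA desaturase, was at 676 to 815 RPKM in Con and 22.5 to 94.4 in STZ (-4.16 ± 0.77, SE, adjusted p = 0.0011). Pnpla3, a lipid droplet protein, fell by 0.78 on the log2 scale from levels of 0.56 to 1.77 RPKM in Con. In STZ it was at 0.14, 0.5 and 0.07 RPKM, so it passed the filter for testing only through Con and AOS libraries. Srebf1, which encodes the lipogenic factor SREBP1, was at 29.9, 58.3 and 44.4 RPKM in Con and 46.4, 23.9 and 29.1 in STZ and was not called (-0.41, adjusted p = 0.363). The count of insulin-induced genes that fell was 2 without the second Con library, 3 without the third Con library and 3 without the second STZ library, and 3 of 9 tested when the fit held Con and STZ alone.

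**Figure D4:**
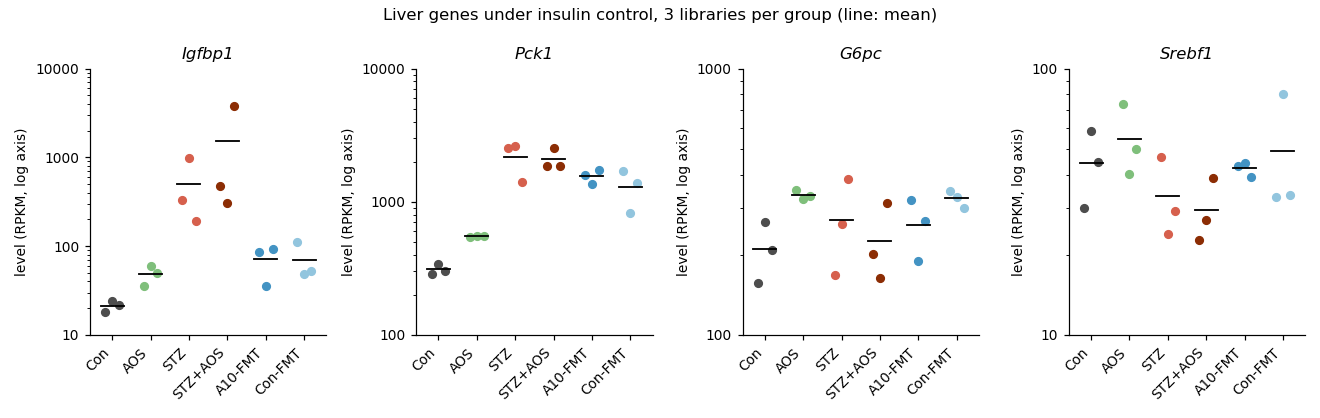
Levels of 4 liver genes under insulin control in RPKM (vertical axes, logarithmic) for each of the 3 libraries of the 6 groups, with the mean as a line. Igfbp1 and Pck1 are lowest in Con, and G6pc and Srebf1 overlap between STZ and Con. For both of these genes STZ+AOS lies below AOS without overlap, and G6pc in AOS and in Con-FMT lies above Con.

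AOS without streptozotocin did not give a call among the members. In AOS against Con 0 of 10 were called (0.00924% of all genes), 0 had an unadjusted p under 0.05 with limma, where 781 of all genes did, and the lowest adjusted p of a member was 0.797. Insr (11.3, 11.4 and 11.5 RPKM), Foxo1 (5.82, 5.88 and 6.0) and Grb14 (35.5, 37.4 and 36.0) in AOS lay above all Con libraries, and 24.4% of all genes did not overlap in that comparison, in either direction. Of the named insulin-controlled genes, Igfbp1, Pck1, G6pc, Ppargc1a and Scd1 in AOS also lay above all Con libraries. Klf15, Srebf1 and Pnpla3 overlapped Con, and none of these insulin-controlled genes was called. In STZ+AOS against STZ 0 of 10 were called (0% of all genes) and 0 had an unadjusted p under 0.05, where 657 of all genes did. Irs2, Foxo1 and Foxo3 differed by 0.65, 0.38 and 0.21 on the log2 scale, and these became -0.02, -0.13 and -0.07 without the third STZ+AOS library. The interaction of AOS with streptozotocin gave 0 calls among the members (0% of all genes, 584 with an unadjusted p under 0.05) and a lowest adjusted p of 0.921 among them.

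Streptozotocin on the AOS background was tested by STZ+AOS against AOS, whose group means share no library with STZ against Con. Both comparisons take their spread from all 18 libraries of 1 fit, so their p-values are not independent. There 8 members were called, 7 higher and 1 lower, where 37.9% of all genes were called, 31.8% higher and 6.11% lower. The log2 differences were 0.58 for Insr (adjusted p = 0.00284), 0.38 for Irs1 (0.0135), 1.89 for Irs2 (0.00294), 0.65 for Akt1 (0.00301), 0.98 for Foxo1 (0.0241), 0.79 for Foxo3 (0.00698), 0.50 for Pdpk1 (0.0131) and -0.51 for Pik3r1 (0.0157), with adjusted p in parentheses. Akt2 (0.07, adjusted p = 0.572) and Grb14 (-0.39, adjusted p = 0.0724) were not called. Grb14 was at 26.2, 31.9 and 24.8 RPKM in STZ+AOS, below all AOS libraries. With median-ratio scaling Irs1 (0.19, adjusted p = 0.242), Foxo1 (0.76, adjusted p = 0.0929) and Pdpk1 (0.29, adjusted p = 0.159) were not called, Grb14 was called lower (-0.63, adjusted p = 0.0155), and Akt2 turned to -0.18. With quantile normalization Akt2 was at -0.14.

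Several of these calls depended on the third STZ+AOS library. It was the highest of 18 for 6 of the members, with Irs2 at 35.5 RPKM against a highest value of 11.2 elsewhere, Foxo1 at 26.5 against 12.1 and Foxo3 at 15.9 against 10.4. Without it, 5 members were called, where 3457 of 10773 genes were. Insr (0.69), Irs1 (0.33), Irs2 (1.23), Akt1 (0.54) and Foxo3 (0.52) stayed called higher, whereas Foxo1 (0.48, adjusted p = 0.0957), Pik3r1 (-0.45, adjusted p = 0.0516) and Pdpk1 (0.31, adjusted p = 0.0523) were not called. Over the alternatives tried, the adjusted p ranged from 0.000697 to 0.129 for Foxo1, from 0.00456 to 0.0616 for Pik3r1 and from 0.00818 to 0.159 for Pdpk1. Foxo1 was also lost without any one of the AOS libraries, and without the first AOS library Irs1 and Pik3r1 were lost too, which left 5. In the third STZ+AOS library Igfbp1 was at 3757 RPKM beside 481 and 305 in the group. The exocrine pancreas genes there included Ctrb1 at 36.5 RPKM and Cela2a at 10.8 where no other library exceeded 0.61 and 1.34, and their part in these values was not tested.

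The transplant groups were compared with STZ to ask whether the microbiota changed these genes in streptozotocin-treated mice. Neither gave a call. In A10-FMT against STZ 0 of 10 members were called with limma, where 0.49% of all genes were, 3 had an unadjusted p under 0.05 (2041 of all genes), and 3 did not overlap (21.4% of all genes). In Con-FMT against STZ 0 of 10 were called, where 0.166% of all genes were, 3 had an unadjusted p under 0.05 (2030 of all genes), and 3 did not overlap (17.5% of all genes). Both comparisons use the same STZ libraries, so their values are given side by side and are not independent, and they share those libraries with STZ against Con.

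Insr was at 13.5, 12.8 and 12.6 RPKM in A10-FMT and 16, 12.8 and 11.3 in Con-FMT, against 18.5, 17.5 and 14.4 in STZ. Its log2 difference from STZ was -0.34 (95% interval of -0.60 to -0.08, adjusted p = 0.169) for A10-FMT and -0.31 (-0.58 to -0.05, adjusted p = 0.197) for Con-FMT. For Irs2 the differences were -0.75 (-1.62 to 0.12, adjusted p = 0.332) and -0.98 (-1.85 to -0.11, adjusted p = 0.219), with both transplant groups below every STZ library. Foxo1 was at 5.69, 6.22 and 8.01 RPKM in A10-FMT and at 5.93, 7.11 and 8.10 in Con-FMT, all below STZ, with differences of -0.47 (adjusted p = 0.441) and -0.39 (adjusted p = 0.526). Foxo3 was at 7.40, 7.88 and 9.29 RPKM in A10-FMT, overlapping STZ, and at 6.36, 5.90 and 6.31 in Con-FMT, below it. The differences of Foxo3 were -0.13 (adjusted p = 0.763) and -0.48 (adjusted p = 0.220).

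Pik3r1 stood above STZ by 0.32 in A10-FMT (adjusted p = 0.258) and 0.27 in Con-FMT (adjusted p = 0.350), and Akt1 below it by log2 differences of -0.23 (adjusted p = 0.394) and -0.30 (adjusted p = 0.267). Pdpk1 differed by -0.30 (adjusted p = 0.264) and -0.21 (adjusted p = 0.447). For Irs1, Akt2 and Grb14 the adjusted p was 0.403 or higher in both comparisons. Without the third STZ library 2 members were called in A10-FMT against STZ, Insr (-0.44, adjusted p = 0.0458) and Pik3r1 (0.49, adjusted p = 0.0389), and 0 in Con-FMT against STZ. Of all 10808 genes, 1000 and 1322 were called in these comparisons. With the third STZ and the third STZ+AOS library both left out, Insr, Irs2 and Pik3r1 were called in A10-FMT against STZ, and these 3 with Akt1 and Foxo3 in Con-FMT against STZ. Of all 10759 genes, 1864 and 2044 were called there. Over the alternatives tried, the adjusted p of Insr ranged from 0.0164 to 0.526 in A10-FMT and from 0.0195 to 0.502 in Con-FMT. With all libraries, none of the 7 lists of other pathway genes had a call in either comparison. With both libraries that stood apart left out, the numbers that fell in A10-FMT were 1 of 7 receptors and adaptors, 3 of 10 kinase and FoxO relatives, 4 of 18 inhibitors, 1 of 11 in the mTOR arm and 1 of 12 in the Ras-MAPK arm, where 12.7% of all genes fell. In Con-FMT they were 1, 3, 5, 1 and 1 of the same lists, where 12.6% of all genes fell, and 1 inhibitor rose.

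The insulin-controlled genes in the transplant groups were also set against STZ. Igfbp1 was at 85.0, 35.8 and 93.6 RPKM in A10-FMT and 111, 49.2 and 52.0 in Con-FMT, below every STZ library, with log2 differences of -2.57 in both comparisons (adjusted p = 0.113 and 0.112). Its difference was the largest of the named insulin-controlled genes. Ppargc1a differed from STZ by -0.99 in A10-FMT (adjusted p = 0.109) and by -0.90 in Con-FMT (adjusted p = 0.123). Pck1 (-0.43 and -0.76), Klf15 (-0.25 and -0.27), G6pc (-0.02 and 0.34), Scd1 (1.53 and 1.24) and Srebf1 (0.39 and 0.47) all overlapped STZ in both comparisons. Pnpla3 also overlapped it, on the side away from Con by mean (-0.10 and -0.11). Of the 10 insulin-repressed genes 0 were called with all libraries. With the third STZ+AOS library left out of the spread, 4 fell and 1 rose in A10-FMT (2.59% of all genes fell) and 2 fell in Con-FMT (1.81% of all genes fell), and Igfbp1 was among those that fell in both (adjusted p = 0.0227 and 0.0271). With both libraries that stood apart left out, 4 fell and 1 rose in A10-FMT (12.7% of all genes fell). In Con-FMT 5 fell and 1 rose (12.6% of all genes fell). The insulin-induced genes had 0 calls under each of these alternatives. Of the kinase list, Sgk1 was at 10.6, 7.24 and 12.1 RPKM in A10-FMT and 17.8, 10.7 and 14.7 in Con-FMT, below every STZ library (-1.34, adjusted p = 0.0651, and -0.85, adjusted p = 0.165). For Pik3ca the differences were smaller (-0.34, adjusted p = 0.0624, and -0.32, adjusted p = 0.0794).

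Against Con, the transplant groups show what remained different in mice given streptozotocin and microbiota. In A10-FMT against Con 2 members were called higher, where 17.1% of all genes were called and 14.7% called higher, and 5 members did not overlap (48.4% of all genes). The called genes were Irs1 (0.43, adjusted p = 0.0159) and Foxo3 (0.77, adjusted p = 0.018). In Con-FMT against Con only Irs1 was called higher (0.42, adjusted p = 0.0191), where 18.1% of all genes were called and 16.3% called higher, and 7 members did not overlap (45.3% of all genes). Insr differed from Con by 0.32 (adjusted p = 0.089) in A10-FMT and 0.34 (adjusted p = 0.0648) in Con-FMT, Irs2 by 0.79 (adjusted p = 0.189) and 0.57 (adjusted p = 0.340), Foxo3 in Con-FMT by 0.42 (adjusted p = 0.15) and Pik3r1 by -0.12 (adjusted p = 0.627) and -0.17 (adjusted p = 0.429). With the third STZ+AOS library left out of the spread, Irs2 was also called in A10-FMT (adjusted p = 0.0291). Insr (adjusted p = 0.0349) and Foxo3 (adjusted p = 0.0476) were then also called in Con-FMT. With both libraries that stood apart left out, Irs2 (adjusted p = 0.0225) and Insr (0.0275) were also called in A10-FMT. Insr (0.0187) and Foxo3 (0.0171) were then also called in Con-FMT. Of all 10759 genes, 3076 and 3233 were called in that fit. With the compared groups alone, Irs2 was called in A10-FMT (adjusted p = 0.0096) and in Con-FMT (0.0345). Insr was then called in A10-FMT (0.0153) and Foxo3 in Con-FMT (0.0421), where 3355 and 2128 of all genes were called. With only Con, STZ, A10-FMT and Con-FMT in the fit, Irs2 was called in A10-FMT (adjusted p = 0.0228). With median-ratio scaling no member was called in either comparison, and without the first Con library none was called either. Foxo3 was also lost without the third A10-FMT library, and Irs1 in Con-FMT without the first Con-FMT library, while Insr was called in Con-FMT (0.45, adjusted p = 0.0439, and 0.0187 to 0.643 over the alternatives tried) without the third Con-FMT library.

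A10-FMT and Con-FMT, which differ in the microbiota donors, were compared directly. Of the 10 members 0 were called (0% of all genes), 0 had an unadjusted p under 0.05, where 245 of all genes did, and no adjusted p was below 0.999. Foxo3 had the largest difference, higher in A10-FMT by 0.35 with an interval of -0.08 to 0.77, and Pdpk1 was lower in A10-FMT without overlap (-0.09, interval of -0.39 to 0.21). These 2 members were the ones that did not overlap, where 8.84% of all genes did not, in either direction. An effect past the threshold against Con or STZ in either transplant group is therefore not shown to differ between the transplant groups.

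Plain ratios between relatives within a library do not change when all its values are multiplied by a common factor. The differences tested were of ratios of RPKM + 1 on the log2 scale, which the added 1 makes depend somewhat on the scaling. Irs2 was below Irs1 in Con, with ratios of 0.866, 0.812 and 0.938, and above it in STZ, with ratios of 2.38, 3.25 and 1.61. The ratios were 0.695, 1.35 and 1.06 in AOS, 1.74, 2.56 and 8.09 in STZ+AOS, 1.46, 0.862 and 1.39 in A10-FMT and 1.2, 0.872 and 0.978 in Con-FMT. On the log2(RPKM + 1) scale the ratio was higher in STZ than in Con by 1.17, lower in A10-FMT than in STZ by a difference of -0.80, and lower in Con-FMT than in STZ by -1.01. Each had p = 0.1 in a two-sided exact permutation test, the smallest that 3 against 3 libraries can give, and an adjusted p of 0.5 over 15 such tests, so the design could not reach 0.05. The ratio of Foxo1 to Foxo3 averaged 1.19 ± 0.128 in Con, 1.08 ± 0.252 in STZ and 0.807 ± 0.049 in A10-FMT, and that of Akt2 to Akt1 averaged 1.68 ± 0.155 in Con and 1.46 ± 0.248 in STZ. Their 10 tests gave exact p of 0.2 to 0.7.

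**Figure D5:**
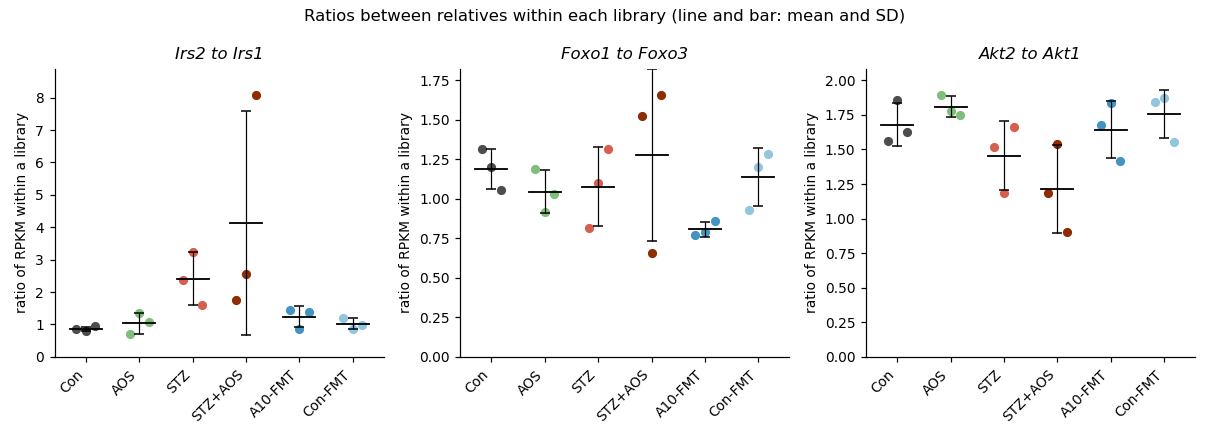
Ratio of the RPKM of relatives within each library (vertical axes, from 0) for the 3 libraries of the 6 groups, with the mean as a line and the SD as a bar. The Irs2 to Irs1 ratio is 0.812 to 0.938 in Con and 1.61 to 3.25 in STZ, with 1 STZ+AOS library at 8.09.

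For the 3 members with the lowest adjusted p in STZ against Con, the genes with the most similar profile were listed by the root mean square difference of centred log2(RPKM + 1) over the 18 libraries. For Insr, whose own root mean square was 0.29, they were Manea (0.081), Sh3bp5 (0.084) and Zfp629 (0.084). For Foxo3 (0.43) they were Ndel1 (0.15), Arih2 (0.16) and Dsc2 (0.16). For Irs2 (0.88) they were Cobll1 (0.30), Klf6 (0.30) and Cyp26b1 (0.32). The neighbours of Irs2 shared its highest library, the third of STZ+AOS, where Cobll1 was at 56.7 RPKM and Klf6 at 18.4. That library was also the highest for Foxo3 and its neighbours Ndel1 (26.5 RPKM), Arih2 (22.2) and Dsc2 (25.5). Likeness without it was not computed. No member was among the 3 nearest genes of Insr, Foxo3 or Irs2, and the nearest genes of the other members were not searched.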

How the data were processed

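Liver RNA of 18 libraries was sequenced by the authors, who deposited 1 table of RPKM values per gene symbol. The study's methods name SOAPaligner, and the submitters' processing notes name Bowtie 0.12.2 and the mm10 build, so which aligner made the table is unsure. Of its 19057 symbols, 26 were turned into dates and 3 were listed more than once, none a member. Differences were fitted with limma 3.58.1 (R 4.3.3) on log2(RPKM + 1), in 1 model of 6 group means with a mean-variance trend, over the 10822 genes at 1 RPKM or more in at least 3 libraries, and adjusted by Benjamini-Hochberg over those genes. All 10 members passed this filter, as they were above 1 RPKM in all 18 libraries. The fit was tested on simulated data. Ratios were compared by exact permutation tests. Named pathway genes are, per list and direction, at most 3 called genes without overlap in STZ against Con, by lowest adjusted p, plus Igfbp1, Pck1, G6pc and Srebf1, and some results under this rule are not reported here. The members and lists were chosen with earlier results of these data known. Gene positions are from GENCODE M21 (GRCm38) and promoters from RefSeq. Alternatives covered scaling, pseudocount, filter, samples in the fit, the study's limits and single libraries left out.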

Additional observations from a re-analysis of the deposited data

How the results depend on the processing

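The members called in STZ against Con fell from 7 to 4 with median-ratio scaling, to 4 with quantile normalization, to 4 with the compared groups alone and to 0 at the limits of the study, and ranged from 4 to 7 without single libraries. In STZ+AOS against AOS the 8 became 5 with quantile normalization, 4 with the compared groups alone and 0 at the study's limits. They became 7 with both libraries that stood apart left out and 5 to 9 without single libraries. In A10-FMT against Con the 2 became 0, 1, 4 and 0 under the 4 alternatives given for STZ against Con, in order. They became 3 without the third STZ+AOS library in the spread, 4 with both libraries that stood apart left out and 0 to 2 without single libraries. In Con-FMT against Con the 1 became 0, 0, 3 and 0, 3 without the third STZ+AOS library in the spread, 3 with both libraries that stood apart left out and 0 to 2 without single libraries. Against STZ the 0 calls became 3 for A10-FMT and 5 for Con-FMT with both libraries that stood apart left out, 1 (Irs2) for Con-FMT without the third STZ+AOS library in the spread, and 0 to 2 for A10-FMT without single libraries. Both alternatives that leave out these libraries were chosen after seeing the data.

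Akt2 turned to -0.0608 (median-ratio) and -0.0688 (quantile) in STZ against Con, and to -0.18 and -0.14 in STZ+AOS against AOS. In STZ+AOS against STZ, with both libraries that stood apart left out, Irs2 was -0.16, Foxo1 -0.16 and Foxo3 -0.23, and without single libraries they ranged from -0.0164 to 1.05, -0.13 to 0.85 and -0.0655 to 0.40. Grb14 ranged from -0.30 to 0.0872 in STZ against Con. Without single libraries the log2 ratio of Irs2 to Irs1, AOS against Con, ranged from -0.00199 to 0.34 and from -0.11 to 0.93 in STZ+AOS against STZ. The log2 ratio of Foxo1 to Foxo3, STZ against Con, ranged from -0.27 to 0.0394, the log2 ratio of Foxo1 to Foxo3, STZ+AOS against STZ, from -0.0639 to 0.55, and the log2 ratio of Foxo1 to Foxo3, Con-FMT against STZ, from -0.0869 to 0.22. The cause was not tested.

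Among all genes, calls in STZ against Con were 3904, 2639 with median-ratio scaling and 2688 with quantile normalization. Calls in A10-FMT against STZ were 53, 1000 without the third STZ library and 1864 with both libraries that stood apart left out, and in Con-FMT against STZ 18, 1322 and 2044. With a replicate block the members called were 7 in STZ against Con, as without it, and 2 rather than 1 in Con-FMT against Con. Same-numbered libraries deviated together (correlations of 0.121 to 0.291) in A10-FMT against Con-FMT, where 0 members were called with or without the block, and not in STZ against Con (-0.142 to -0.0642), so the numbers were not taken to pair the libraries. With 3 libraries per group and no read counts, the spread between libraries sets what could be detected.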
